A study of Mus musculus with 6 samples.

Results

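The ferroptosis and iron handling genes followed here through the cold acclimation of T cells were 10 in number: Slc7a11, Gclc, Gclm, Gpx4, Aifm2, Acsl4, Tfrc, Fth1, Ftl1 and Hmox1. They were taken by gene symbol from the deposited expression table, and each of the 10 had 1 row among the 41079 genes listed. All 10 had a mean TPM of at least 1 (transcript abundance, a read count divided by gene length and scaled to the same total in every library), so all of them were among the 12227 genes tested. Poly(A)+ RNA had been sequenced from D10 cells, described as a mouse CD4+ helper T cell clone whose antigen is conalbumin. Non-acclimated T cells were kept for 24 h at 37°C (3 libraries) and cold-acclimated T cells for 24 h at 26°C (3 libraries). The sources name no genetic change and no drug in either group, and the medium held the T cell growth factor IL-2. As the sources describe them, the cells are 1 clone of a single specificity and not T cells of a tissue. Cd4 and Trac nevertheless differed between replicate numbers, as given below. Read numbers recovered from the TPM steps came to between 16899628 and 31290854 per library.

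Ferroptosis is a form of cell death in which iron drives the peroxidation of polyunsaturated phospholipids in membranes. Cells hold it back by importing cystine, building glutathione from it and letting glutathione peroxidase 4 reduce the lipid peroxides, while ubiquinone recycling gives a parallel defence. Iron enters through the transferrin receptor, is stored in ferritin and is released from haem by haem oxygenase. Activated T cells display much transferrin receptor, and T cells that lack Gpx4 are known to die with lipid peroxides in their membranes.

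One of the 10 genes, Gclc, was called upregulated and none was called downregulated. A call required a Benjamini-Hochberg adjusted p under 0.05 over all tested genes, from limma on log2(TPM + 1), together with a log2 difference of 1 or more in either direction. Over all tested genes 2.63% were called upregulated and 16.0% downregulated. At an unadjusted p under 0.05, 2 of the 10 genes passed, Gclc and Hmox1, against 37.7% of all tested genes. The median log2 fold change was 0.10 over the 10 genes and -0.34 over all tested genes. With libraries divided by size factors (median of ratios scaling, which the study's methods name), these medians were 0.46 and 0.02. Gclc was then again the only one of the 10 called, against 6.56% of all tested genes upregulated and 8.79% downregulated. TPM is a share of a library, so a change in the RNA of a whole cell cannot be told apart from no change, and neither can fewer cells of a type from less RNA per cell.

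Some T cell markers set 1 replicate apart from the others in both conditions, replicate 3 for Cd4 and replicate 2 for others. Cd4, which encodes the co-receptor of helper T cells, stood at 1.09, 0.0351 and 309.7 TPM in non-acclimated replicates 1, 2 and 3, while the cold-acclimated libraries held 1.30, 0.352 and 328 TPM. It was thus near 0 in replicates 1 and 2 although the labels call the cells CD4+. Trac, a constant chain of the T cell receptor, was between 12.8 and 15.0 TPM in replicate 2 and at least 128.5 TPM in the other libraries. Cd3d and Cd28 were lowest in replicate 2 as well, at 64.3 and 7.35 TPM at 37°C and at 78.6 and 5.61 TPM at 26°C. Cd3e, a chain of the receptor complex, was between 476.3 and 874 TPM in all 6. The 10 T cell markers summed to 4520 to 6075 TPM at 37°C and to 3420 to 4508 TPM at 26°C. Of these 10, 1 was called downregulated and 9 were not called, and their median log2 fold change was -0.21. The called one, Il2ra, fell from between 1360.3 and 2026.0 TPM to between 217.0 and 327.2 TPM. It is counted in the sums, so the lower sums at 26°C hold its fall and are not a measure of T cell content. The 10 B cell markers summed to 2.11 to 3.76 TPM at 37°C and to 1.02 to 2.06 TPM at 26°C. Because the replicate numbers turned out to pair the libraries, values are given by replicate number throughout, and without replicate 3 where this matters.

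**Figure D1:**
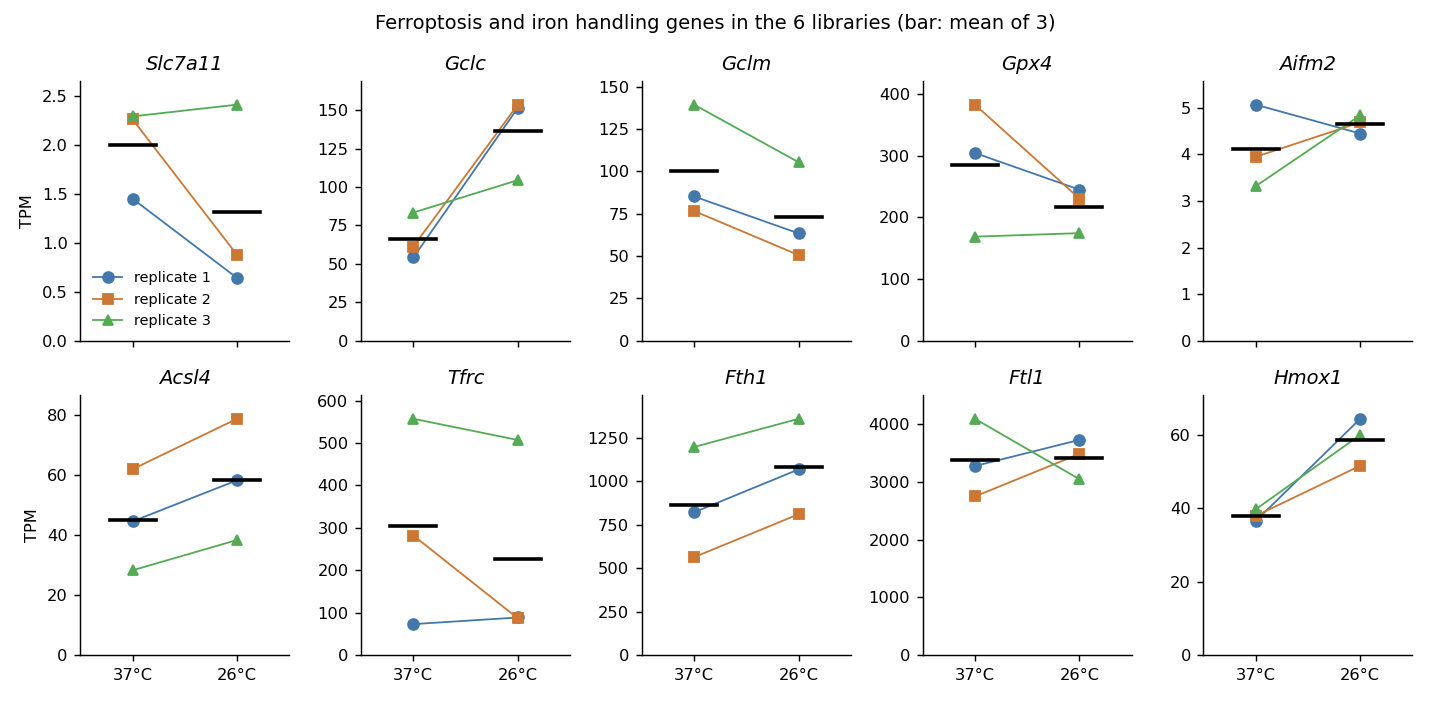
TPM of the 10 genes in the 6 libraries, with 37°C on the left and 26°C on the right of each panel. Lines join libraries with the same replicate number and the bars are the means of 3. Only Gclc and Hmox1 have all 3 cold-acclimated values above all 3 non-acclimated values, and for Tfrc replicate 3 has the highest value at both temperatures.

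By level the genes spread over more than 3 orders of magnitude. TPM, which is per length, allows this comparison as far as the gene lengths used hold. At 37°C the means ran from Ftl1 (3371 TPM) through Fth1 (860.7), Tfrc (303.9), Gpx4 (285.2), Gclm (100.4), Gclc (66.3), Acsl4 (44.9), Hmox1 (38.0) and Aifm2 (4.11) to Slc7a11 (2.00 TPM). Neighbours in this order whose libraries overlapped were Tfrc with Gpx4, Gclm with Gclc, Gclc with Acsl4, and Acsl4 with Hmox1. At 26°C Gclc (136.5 TPM) stood above Gclm (73.1) and Hmox1 (58.7) just above Acsl4 (58.4), with overlapping libraries in both pairs, and the other genes kept their places. Among all tested genes Ftl1 held rank 23 in mean TPM at 37°C and rank 32 at 26°C. Gclc moved from rank 2959 to rank 1309 and Hmox1 from rank 4519 to rank 2819.

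Glutathione is made from cysteine in steps whose first is rate-limiting, and the enzyme of that step is a pair of a catalytic subunit, Gclc, and a modifier subunit, Gclm. Gclc (ENSMUSG00000032350, GRCm39 chr9:77661817-77701771, plus strand) stood at 54.2, 61.3 and 83.4 TPM in non-acclimated replicates 1, 2 and 3, and at 151.5, 153.6 and 104.5 TPM in cold-acclimated replicates 1, 2 and 3. Every cold-acclimated library was above every non-acclimated one. The means were 66.3 ± 15.2 and 136.5 ± 27.8 TPM (SD, n = 3), and within replicates the level rose 2.80-fold, 2.50-fold and 1.25-fold. The log2 fold change was 1.03 ± 0.27 (SE), with a limma adjusted p of 0.034. These values rest on 1378 to 5132 recovered reads per library. Among the tested genes, 507 had a higher log2 fold change.

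The size of the Gclc change depended on replicate 3, whose difference on the log2 scale was 0.32 against 1.47 and 1.31 in replicates 1 and 2. Without replicate 3 of both conditions, an alternative chosen after seeing the data, the log2 fold change was 1.39 ± 0.21 (SE) and the limma adjusted p 0.0069. Leaving out any 1 of the 4 libraries of replicates 1 and 2 ended the call, at log2 fold changes of 0.90 to 0.99 and limma adjusted p of 0.11 to 0.12. With all 6 libraries but no filter on low values the call was lost as well (limma adjusted p = 0.057). With median of ratios scaling and all libraries it was 1.43 ± 0.28 (SE), with a limma adjusted p of 0.021.

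The modifier subunit did not pass the test. Gclm (ENSMUSG00000028124, chr3:122039206-122060864, plus strand) stood at 85.2, 76.6 and 139.4 TPM at 37°C and at 63.4, 50.6 and 105.4 TPM at 26°C. It was lower at 26°C within each of the 3 replicates, at 0.745, 0.661 and 0.756 times the non-acclimated level, whereas the conditions overlapped because both libraries of replicate 3 were high. The log2 fold change of -0.47 ± 0.35 (SE) did not pass the test (limma adjusted p = 0.37), and it was -0.07 after median of ratios scaling. With the replicate number as a term (replicate block) the limma adjusted p was 0.093.

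The ratio of Gclc to Gclm does not depend on how libraries are scaled. It was 0.636, 0.801 and 0.598 in the non-acclimated libraries of replicates 1, 2 and 3. In the cold-acclimated ones it was 2.39, 3.04 and 0.991. In TPM the catalytic subunit was thus the less abundant transcript at 37°C in all 3 libraries. At 26°C it was the more abundant one in replicates 1 and 2, with near equal levels in replicate 3. The order at 37°C rests on the division by gene lengths, which the sources do not give. In recovered reads Gclc was the higher one there, at 1378, 1871 and 3723 against 1210, 1305 and 3474 for Gclm. The change of the ratio between temperatures does not depend on these lengths. The log2 ratio was -0.57 ± 0.22 at 37°C and 0.95 ± 0.85 at 26°C (SD, n = 3), a difference of 1.52. The values did not overlap, and the exact two-sided permutation test gave p = 0.10, the smallest that 3 against 3 libraries allow. Within replicates the ratio was 3.76, 3.79 and 1.66 times as high at 26°C.

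**Figure D2:**
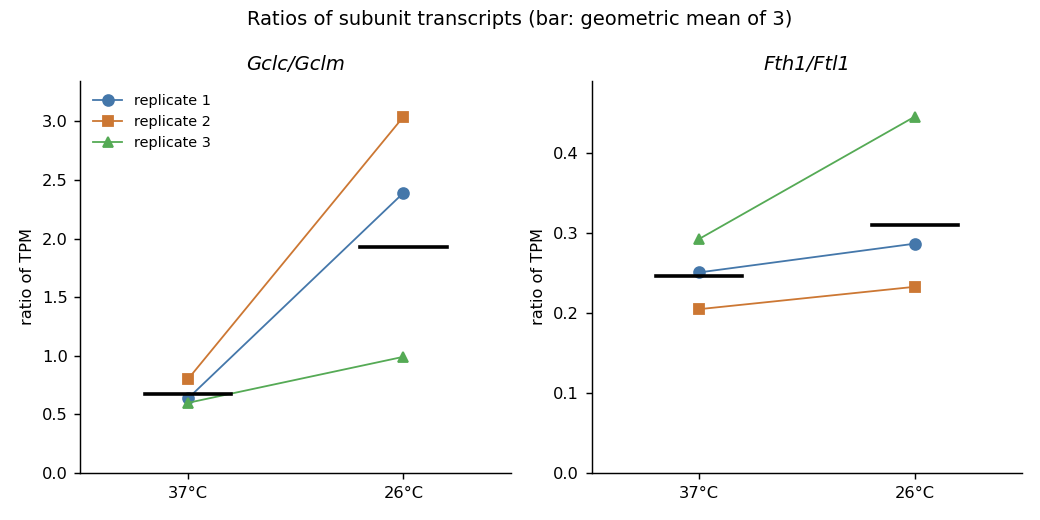
Ratios of TPM in the 6 libraries for the subunits of glutamate-cysteine ligase (Gclc to Gclm, left) and of ferritin (Fth1 to Ftl1, right). Lines join libraries of the same replicate number and bars are geometric means of 3, 0.673 and 1.93 for Gclc to Gclm at 37°C and 26°C, and 0.247 and 0.310 for Fth1 to Ftl1.

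Slc7a11 (ENSMUSG00000027737, chr3:50319385-50403947, minus strand) encodes the transport subunit of the exchanger that brings in cystine. It was the least abundant of the 10, at 1.45, 2.26 and 2.29 TPM at 37°C and 0.641, 0.876 and 2.41 TPM at 26°C. Replicates 1 and 2 were lower at 26°C, at 0.443 and 0.388 times the non-acclimated level, whereas replicate 3 was at 1.06 times that level. In limma its log2 fold change was -0.44 ± 0.37 (SE, limma adjusted p = 0.43). Only 52 to 258 recovered reads per library stood behind these values, and on the log2(TPM + 1) scale a change of so low a gene is understated.

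Gpx4 (ENSMUSG00000075706, chr10:79883000-79892273, plus strand) encodes the peroxidase that reduces phospholipid hydroperoxides at the expense of glutathione. Its active site holds selenocysteine, which is read from a TGA codon inside the reading frame. In the canonical GENCODE transcript this is codon 73 of 197, and it is shown here in capitals within exon 3 (GRCm39 chr10:79890556-79890588, plus strand), because the making of the protein depends on the selenoprotein machinery described further on:
Gpx4: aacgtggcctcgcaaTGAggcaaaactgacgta
Its transcript stood at 304.3, 382.6 and 168.7 TPM at 37°C and at 244.8, 230.5 and 174.4 TPM at 26°C. Replicate 3 was the lowest at both temperatures, and the conditions overlapped. Its log2 fold change was -0.33 ± 0.34 (SE, limma adjusted p = 0.52) with TPM as deposited, near the median of all tested genes. The sign turned with median of ratios scaling, where it was 0.07 ± 0.35 (SE, limma adjusted p = 0.91). The means were 285.2 ± 108.2 TPM at 37°C and 216.6 ± 37.2 TPM at 26°C (SD, n = 3).

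Aifm2 (ENSMUSG00000020085, chr10:61551042-61575474, plus strand), also called FSP1, regenerates the reduced ubiquinone that traps lipid radicals without glutathione. It stood at 5.07, 3.95 and 3.32 TPM at 37°C and at 4.45, 4.69 and 4.84 TPM at 26°C. The cold-acclimated libraries lay inside the range of the non-acclimated ones. The log2 fold change was 0.16 ± 0.26 (SE, limma adjusted p = 0.70), on 182 to 277 recovered reads per library.

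Acsl4 (ENSMUSG00000031278, chrX:141100989-141173792, minus strand) activates polyunsaturated fatty acids for their entry into phospholipids, the substrates of ferroptosis. It stood at 44.5, 61.9 and 28.2 TPM at 37°C and at 58.2, 78.7 and 38.3 TPM at 26°C. Replicate 2 was the highest and replicate 3 the lowest at both temperatures, so that the conditions overlapped. Within replicates the cold-acclimated level was 1.31, 1.27 and 1.36 times the non-acclimated one. In limma its log2 fold change was 0.38 ± 0.37 (SE, limma adjusted p = 0.50). With the replicate block and median of ratios scaling together, an alternative chosen after seeing the data, it was 0.78 ± 0.17 (SE) with a limma adjusted p of 0.023, still under the size required for a call.

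Ferritin and the transferrin receptor are controlled after transcription as well. Iron regulatory proteins bind a hairpin, the iron-responsive element, and block translation from a 5′ UTR or protect the message from decay from a 3′ UTR. The hairpin was searched for as the letters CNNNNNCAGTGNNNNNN, on the transcript strand only, with all 5 bases on either side of the CAGTGN loop able to pair (G with T included). Among 21593 canonical protein-coding GENCODE transcripts on GRCm39, 0.111% held a match in the 5′ UTR and 0.574% in the 3′ UTR. Fth1 and Ftl1 each held 1 in the 5′ UTR, Tfrc held 4 in the 3′ UTR, and the other 7 genes held no match with a paired stem. The elements are shown as 30 bases with the loop in capitals, those of Tfrc in 5′ to 3′ order within exon 19 and those of ferritin within exon 1:
Tfrc, chr16:32450037-32450066: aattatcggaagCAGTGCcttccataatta
Tfrc, chr16:32450416-32450445: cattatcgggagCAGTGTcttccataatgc
Tfrc, chr16:32450481-32450510: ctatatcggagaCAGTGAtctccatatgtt
Tfrc, chr16:32450528-32450557: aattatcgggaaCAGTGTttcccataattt
Fth1, chr19:9960096-9960125: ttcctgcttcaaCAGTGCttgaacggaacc
Ftl1, chr7:45109202-45109231 (minus strand): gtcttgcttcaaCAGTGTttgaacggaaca
A transcript level does not show translation, and a match in letters is not evidence that a protein bound there in these cells.

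Tfrc (ENSMUSG00000022797, chr16:32427714-32451612, plus strand) encodes the receptor that takes up iron-loaded transferrin. It stood at 72.7, 281.8 and 557.3 TPM in non-acclimated replicates 1, 2 and 3, against 88.3, 86.3 and 507.2 TPM after cold acclimation. Replicate 3 was the highest at both temperatures, and the largest difference between temperatures was in replicate 2, at 0.306 times the non-acclimated level. The ratio was 1.21 in replicate 1 and 0.910 in replicate 3, so the replicates did not go one way. Non-acclimated libraries differed from each other up to 7.66-fold and cold-acclimated ones up to 5.88-fold, more than for any other of the 10 genes in both conditions. Its log2 fold change was -0.52 ± 0.89 (SE, limma adjusted p = 0.72), and leaving out non-acclimated replicate 3 turned its sign, to 0.13.

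Developing red cells also hold much transferrin receptor, and the 10 erythroid markers summed to 94.7 to 491.4 TPM at 37°C and 84.4 to 479.6 TPM at 26°C. Most of this was Hba-a1, an alpha globin gene, at 484.9 and 473.4 TPM in replicate 3 and between 60.8 and 189.2 TPM in the other libraries. In non-acclimated replicates 1 and 2 Hba-a1 was at 189.2 and 79.9 TPM, and Tfrc at 72.7 and 281.8 TPM. Epor, the erythropoietin receptor, was lowest in replicate 3, at 4.0 and 4.88 TPM against 8.19 to 23.0 TPM elsewhere. Alas2 was highest in replicate 3 at each temperature, at 0.500 TPM against at most 0.0731 at 37°C and 1.08 TPM against at most 0.637 at 26°C. Hba-a2 reached 1.62 TPM in non-acclimated replicate 3, and Klf1 0.907 TPM in non-acclimated replicate 2. The beta globins Hbb-bs and Hbb-bt, the anion exchanger Slc4a1 and the globin chaperone Ahsp were at 0 in every library. The part of red cells in the Tfrc levels was not tested.

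Ferritin, the iron store, is built of heavy and light subunits, of which the heavy one oxidizes the iron. Fth1 (ENSMUSG00000024661, chr19:9957964-9962475, plus strand) stood at 821.5, 563.0 and 1198 TPM at 37°C and at 1069, 810.4 and 1360.1 TPM at 26°C. Replicate 3 was the highest and replicate 2 the lowest in both conditions, which overlapped, and the cold-acclimated level was 1.30, 1.44 and 1.14 times the non-acclimated one. The log2 fold change was 0.36 ± 0.34 (SE, limma adjusted p = 0.48). With the replicate block and median of ratios scaling together it was 0.76 ± 0.19 (SE, limma adjusted p = 0.031), again under the size required for a call.

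Ftl1 (ENSMUSG00000050708, chr7:45107368-45109310, minus strand), the light subunit, stood at 3274, 2746 and 4093 TPM at 37°C and at 3728, 3484.5 and 3047 TPM at 26°C. The cold-acclimated libraries lay within the range of the non-acclimated ones, with replicates 1 and 2 higher and replicate 3 lower at 26°C. In limma its log2 fold change was 0.03 ± 0.26 (SE, limma adjusted p = 0.94). The ratio of Fth1 to Ftl1 was 0.251, 0.205 and 0.293 at 37°C and 0.287, 0.233 and 0.446 at 26°C, and within replicates 1.14, 1.13 and 1.53 times as high. Its values overlapped between the conditions, with a log2 difference of 0.33 and p = 0.50 in the exact two-sided permutation test (n = 3 per group). That test left the pairing of replicates out. Ferritin genes have near-identical copies, to which reads could be assigned. The related genes found by name, Fthl17a to Fthl17f, Fthl17-ps1 and Ftl1-ps2, reached at most 0.656 TPM in any library. Copies that carry other names were not searched for.

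Hmox1 (ENSMUSG00000005413, chr8:75820246-75827221, plus strand) encodes the inducible haem oxygenase, which opens haem and sets its iron free. It stood at 36.5, 37.9 and 39.7 TPM at 37°C and at 64.4, 51.6 and 60.0 TPM at 26°C. Every cold-acclimated library was above every non-acclimated one, and the level was 1.77, 1.36 and 1.51 times as high within replicates. The means were 38.0 ± 1.6 and 58.7 ± 6.5 TPM (SD, n = 3). The log2 fold change of 0.61 ± 0.21 (SE) did not reach the threshold, with a limma adjusted p of 0.075 (unadjusted p = 0.021), and with the replicate block the limma adjusted p was 0.055. With median of ratios scaling it was 1.00 ± 0.20 (SE) with a limma adjusted p of 0.021, where the unrounded size fell just short of the 1 required. Macrophages are rich in this enzyme, and the 10 macrophage and monocyte markers summed to 2.87 to 16.0 TPM at 37°C and 2.90 to 21.5 TPM at 26°C. Lyz2 made up most of the highest sums, at 11.6 and 14.8 TPM in replicate 3 and at most 1.58 TPM elsewhere, Cd68 was between 1.07 and 6.36 TPM, and Mrc1 reached 1.81 TPM. Cd14, Marco and Cd163 were at 0 in all 6 libraries, and Csf1r and Adgre1 did not exceed 0.0705 TPM. The part of such cells in the Hmox1 difference was not tested.

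**Figure D3:**
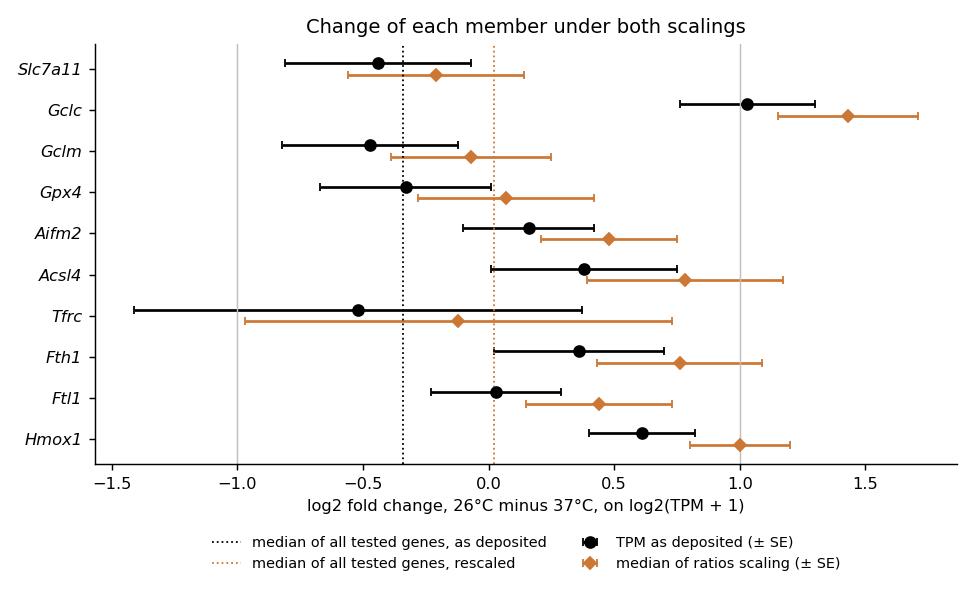
Log2 fold change of each gene, 26°C minus 37°C, with its standard error from limma, for TPM as deposited (black circles) and after median of ratios scaling (orange diamonds). Dotted lines mark the medians of all tested genes under the same scalings (-0.34 and 0.02) and grey lines the size of 1 required for a call. Gclc lies at 1.03 and 1.43, and Gpx4 changes sign between the scalings.

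Counted over the 10 genes, the values of 2 (Gclc and Hmox1) did not overlap between the conditions with all cold-acclimated libraries above, and those of none did so with all below. Over all tested genes these shares were 9.69% and 31.4%. Within replicates, 4 genes (Gclc, Hmox1, Acsl4 and Fth1) were higher at 26°C in all 3 replicates and 1 (Gclm) was lower in all 3, against 18.2% and 47.9% of all tested genes. The other 5 went both ways. With the replicate block, Gclc remained the only called gene of the 10, where 3.75% of all tested genes were called upregulated and 21.9% downregulated.

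The genes also differed in what their spread followed. The squared deviations of log2(TPM + 1) from a gene's mean were divided into a share for temperature, a share for replicate number and a remainder. Temperature took 90.5% for Hmox1 and 80.2% for Gclc, and replicate number 3.93% and 0.491%. For the other 8 genes replicate number took more than temperature. Its share was 83.6% for both Acsl4 and Tfrc, 78.8% for Fth1, 74.1% for Gclm, 69.6% for Gpx4 and 53.4% for Slc7a11. For Aifm2 it was nearly that of temperature, 23.4% against 23.3%, and for Ftl1 77.9% was remainder. Over all tested genes the medians were 44.7% for temperature and 31.5% for replicate number, and replicate number took more than temperature for 45.2% of them. These shares are descriptions of 6 libraries. The labels do not say to which batch of RNA extraction a library belonged, so no share can be told apart from one of batch.

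**Figure D4:**
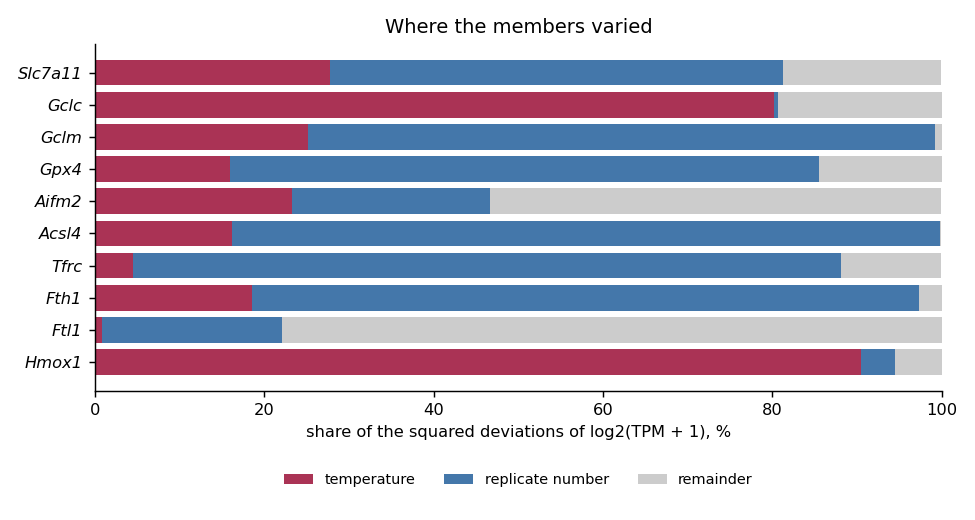
Share of the squared deviations of log2(TPM + 1) that went with temperature, with replicate number and with neither, in percent, for each of the 10 genes over the 6 libraries. Temperature holds the largest share for Hmox1 (90.5%) and Gclc (80.2%), and replicate number for Acsl4, Tfrc, Fth1, Gclm, Gpx4 and Slc7a11, while the remainder is the largest share for Aifm2 and Ftl1.

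The wider pathway was described by 10 lists that hold 168 listed genes, of which 147 were tested. Of these, 7 were called upregulated (4.76%) and 22 downregulated (15.0%), against 2.63% and 16.0% of all tested genes, and their median log2 fold change was -0.33. After median of ratios scaling the numbers were 12 and 9, so the balance of directions rested on the scaling. Without replicate 3 of both conditions they were 9 and 30, where 5.34% of all tested genes were called upregulated and 25.3% downregulated. With the replicate block they were 7 and 29.

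Around glutathione and lipid peroxide repair, 14 genes were tested, 1 of which (Gclc) was called upregulated and 1 downregulated. That gene, Srxn1, encodes sulfiredoxin, which restores oxidized peroxiredoxins. It was between 16.3 and 23.2 TPM at 37°C and between 3.48 and 11.6 TPM at 26°C, with a log2 fold change of -1.40 ± 0.40 (SE, limma adjusted p = 0.045), and was not called after median of ratios scaling (limma adjusted p = 0.13). Chac1, whose product degrades glutathione, had a log2 fold change of -1.09 ± 0.52 (SE, limma adjusted p = 0.17), and with the replicate block it was called downregulated (SE 0.33, limma adjusted p = 0.043). Among 9 genes of selenoprotein synthesis, on which Gpx4 protein depends, 1 was called in each direction. Eefsec, the elongation factor that delivers the selenocysteine transfer RNA, fell from between 28.3 and 37.8 TPM to between 3.11 and 11.4 TPM, with a log2 fold change of -2.43 ± 0.44 (SE, limma adjusted p = 0.013). Lrp8, a receptor for selenoprotein P, rose from 10.7, 11.7 and 25.3 TPM to 50.6, 31.9 and 33.0 TPM, with a log2 fold change of 1.29 ± 0.37 (SE, limma adjusted p = 0.046). The conditions did not overlap for either of them, and both were called under median of ratios scaling too.

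The list of lipid substrates and oxidation had 20 tested genes, 1 called upregulated and 7 downregulated, and its median log2 fold change was -0.71, against 16.0% downregulated and a median of -0.34 over all tested genes. After median of ratios scaling 2 were called in each direction. Acsl1, which like Acsl4 joins fatty acids to coenzyme A, was the upregulated one. It stood at 7.0, 7.94 and 12.1 TPM at 37°C and 33.2, 33.8 and 35.3 TPM at 26°C, a log2 fold change of 1.84 ± 0.26 (SE, limma adjusted p = 0.0078). Gnpat, which starts the making of ether lipids in peroxisomes, fell from between 68.9 and 100.9 TPM to between 12.2 and 24.9 TPM, a log2 fold change of -2.28 ± 0.31 (SE, limma adjusted p = 0.0074). Under median of ratios scaling both were called in the same direction. The ubiquinone and tetrahydrobiopterin list, to which Aifm2 belongs, had 22 tested genes, with 6 called downregulated and none upregulated, and a median of -0.51, read against the same background. Vkorc1l1, a vitamin K epoxide reductase, fell from 23.1, 42.0 and 39.4 TPM to 2.61, 4.49 and 7.41 TPM (log2 fold change -2.66 ± 0.39 SE, limma adjusted p = 0.0083). Coq9, needed for ubiquinone synthesis, fell from between 30.1 and 43.2 TPM to between 9.03 and 16.5 TPM (log2 fold change -1.61 ± 0.30 SE, limma adjusted p = 0.013). Of the 6 genes, 3 were called downregulated after median of ratios scaling as well.

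Of 12 tested genes for iron uptake and transport, 1 was called in each direction, as was the case under median of ratios scaling. Slc11a2, which carries ferrous iron across membranes, fell from 19.8, 19.4 and 21.6 TPM to 8.05, 5.47 and 8.16 TPM (log2 fold change -1.39 ± 0.25 SE, limma adjusted p = 0.013). Slc25a28, which brings iron into mitochondria, rose from between 13.6 and 22.3 TPM to between 33.8 and 64.1 TPM (log2 fold change 1.31 ± 0.32 SE, limma adjusted p = 0.030). Of the genes for storage, ferritin turnover and export, 3 of 9 were tested, none was called, and 3 were at 0 in every library. Ncoa4, which leads ferritin to degradation, had a log2 fold change of -0.25 ± 0.24 (SE, limma adjusted p = 0.49). Of 7 iron regulatory genes 1 was called downregulated. This was Zfp36, which destabilizes messages, with a log2 fold change of -1.24 ± 0.36 (SE, limma adjusted p = 0.048), not called under median of ratios scaling (limma adjusted p = 0.16). Fbxl5, which marks an iron regulatory protein for destruction, had 0.48 ± 0.25 (SE, limma adjusted p = 0.21).

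The haem list, which holds Hmox1, had 15 tested genes, 1 of them called downregulated and a median of -0.45. After median of ratios scaling none was called and the median was -0.08. Uros, an enzyme of haem synthesis, fell from between 2.22 and 3.87 TPM to between 0.614 and 0.813 TPM (log2 fold change -1.21 ± 0.30 SE, limma adjusted p = 0.029). It passed the filter on low values only through the 37°C libraries, so it is no support for a direction of the list, in which 2 genes were called downregulated with the replicate block. Urod, which acts after it, had a log2 fold change of -0.98 ± 0.28 (SE, limma adjusted p = 0.044), under the size for a call. Neither was called with median of ratios scaling, where the limma adjusted p were 0.054 and 0.14. Iron-sulphur cluster assembly had 27 tested genes, 1 called upregulated and 3 downregulated, with a median of -0.50. With the replicate block 6 were called downregulated, where 21.9% of all tested genes were. After median of ratios scaling 3 were called upregulated and 1 downregulated, with a median of -0.12, so the balance of directions rested on the scaling. Fdxr, the reductase that feeds electrons to ferredoxin, fell from between 31.5 and 39.5 TPM to between 11.2 and 17.9 TPM (log2 fold change -1.34 ± 0.26 SE, limma adjusted p = 0.016), and at -0.96 was under the size for a call after median of ratios scaling. Fdx2, a ferredoxin, was at 0.152, 0 and 0.433 TPM at 37°C and at 1.69, 4.52 and 2.25 TPM at 26°C (log2 fold change 1.62 ± 0.37 SE, limma adjusted p = 0.024). Only 1, 0 and 5 recovered reads stood behind its 37°C values, and it passed the filter only through the 26°C libraries, so the call carries little weight.

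Among 18 tested genes for the regulators NRF2 and BACH1, their partners and other stress factors, 2 were called upregulated and 1 downregulated. NRF2 and BACH1 bind DNA with small Maf proteins, and Gclc, Gclm and Hmox1 are textbook targets. Nfe2l2, the gene of NRF2, was between 24.3 and 28.8 TPM at 37°C and between 14.9 and 17.5 TPM at 26°C, without overlap, and did not pass (log2 fold change -0.71 ± 0.22 SE, limma adjusted p = 0.056). Bach1 had -0.34 ± 0.25 and Keap1, which holds NRF2 back, -0.38 ± 0.24 (SE, limma adjusted p 0.37 and 0.28), and these 3 were named after their values were seen. Mafk, a small Maf protein, rose from 19.5, 23.8 and 37.2 TPM to 64.3, 107.4 and 93.5 TPM (log2 fold change 1.70 ± 0.32 SE, limma adjusted p = 0.014). Trp53, the tumour suppressor p53, fell from 160.4, 181.7 and 222.7 TPM to 47.2, 35.5 and 99.5 TPM (log2 fold change -1.74 ± 0.38 SE, limma adjusted p = 0.022). The remaining called gene was Maff, another small Maf protein, named after its values were seen, with 1.48 to 3.78 TPM at 37°C and 6.45 to 11.1 TPM at 26°C (log2 fold change 1.58 ± 0.35 SE, limma adjusted p = 0.022). Mafk, Trp53 and Maff were called in the same direction after median of ratios scaling, and their libraries did not overlap between the conditions.

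**Figure D5:**
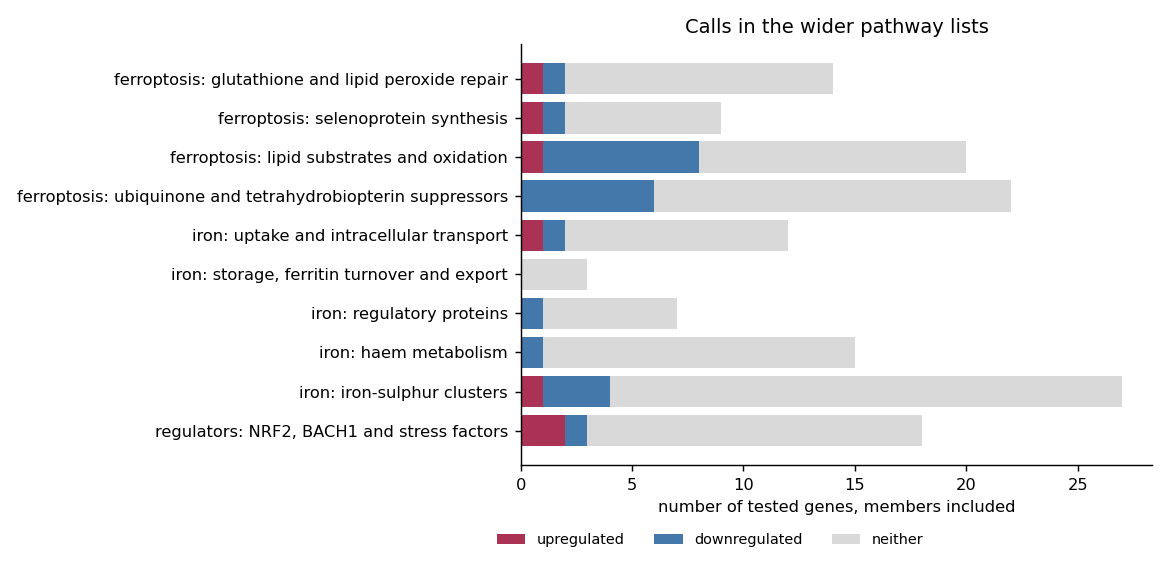
Number of tested genes in each of the 10 pathway lists that were called upregulated, called downregulated or neither by limma on TPM as deposited, the 10 genes described above included. The lists of lipid substrates (7 of 20) and of ubiquinone and tetrahydrobiopterin (6 of 22) hold the most downregulated genes by number. Over all tested genes 16.0% were called downregulated. After median of ratios scaling the 2 lists held 2 and 3 downregulated genes, against 8.79% of all tested genes.

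Over the 6 libraries the patterns most like that of Gclc were those of Oscp1 (Pearson r = 0.9981), Rab4a (0.9977) and Amigo3 (0.9958), all on log2(TPM + 1). As a description, 133 tested genes had an r of at least 0.95 with Gclc over these 6 points, which share the temperature difference. Rab4a, a small GTPase of recycling endosomes, stood at 40.6, 44.7 and 57.3 TPM at 37°C and 98.6, 98.2 and 75.0 TPM at 26°C. Oscp1 was between 0.331 and 1.19 TPM at 37°C and between 1.58 and 3.21 TPM at 26°C, so that it was among the tested genes only through its 26°C level.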

How the data were processed

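The authors deposited 1 table of TPM values for 6 libraries (poly(A)+, strand-specific, paired-end). Per the labels and the submitters' processing notes, reads were checked with FastQC 0.11.7, trimmed with Trimmomatic 0.38, aligned to GRCm39 with HISAT2 2.1.0 and counted with featureCounts 1.6.3. How counts became TPM, with which gene lengths, annotation release and strand setting, is not given in the sources used here. A division by length fixes how genes compare, and the common total couples all genes. No column of another sample was found (0).

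Groups and replicate numbers came from the sample titles. The labels speak of old and new extraction batches but tie no library to either, so temperature could not be compared within a named batch. Deviations from the condition means correlated at 0.48, 0.50 and 0.51 across genes for libraries sharing a replicate number, and from -0.41 to 0.02 otherwise. Deviations within a condition sum to 0, so these 2 sets of correlations are not independent. Values were therefore given by pair, and the replicate block was run as an alternative. The main fit and the permutation tests left the pairing out. For Tfrc the standard error was 0.89 in the main fit and 0.37 with the block, and for Gclc 0.27 in both.

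log2(TPM + 1) was tested with limma 3.58.1 (R 4.3.3, mean-variance trend, no block) over 12227 genes, those whose mean TPM was 1 or more. TPM values of 100% of the 21195 genes above 0 were whole numbers of reads within 1e-06 reads once divided by each gene's step, with a common factor needed for 901 genes. Limma's voom was run on those reads as an alternative. Further alternatives were a pseudocount of 0.1, no filter, median of ratios scaling, the replicate block, leaving out each library, and, chosen after seeing the data, the block with that scaling and leaving out replicate 3. The fits were also run on simulated libraries without a replicate effect and with as many genes raised as lowered. Such libraries differ from these, so that run does not show how the fits behave here. Tables, exact permutation tests and plots used Python 3.11.15, pandas 2.3.3, scipy 1.17.1 and matplotlib 3.10.9.

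The 10 genes and the gene lists were chosen with earlier results of these data known. Named besides the 10 were the 2 tested genes with the smallest p in each pathway list and the 3 genes most correlated with each called gene. Cell type markers were named too, and Nfe2l2, Bach1, Keap1 and Maff were added after their values were seen. P-values measure the spread between these libraries only. Iron-responsive elements and the selenocysteine codon were read from GENCODE vM39 transcripts.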

Additional observations from a re-analysis of the deposited data

How the results depend on the processing

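Of 130 comparisons of a gene's log2 fold change with its value under an alternative, 120 kept the direction and the call, which needs both the adjusted p and the size. In 4 of these the adjusted p alone crossed 0.05 while the size stayed under that of a call (Hmox1 with median of ratios scaling, and Hmox1, Acsl4 and Fth1 with that scaling and the replicate block). The count of upregulated genes among the 10 was 1 in most settings but 0 without the filter on low values, where Gclc had an adjusted p of 0.057 in limma, and between 0 and 1 when 1 library was left out. It was 0 without non-acclimated replicate 1 or 2 and without cold-acclimated replicate 1 or 2, with a Gclc log2 fold change of 0.90 to 1.21 and adjusted p of 0.016 to 0.12 over the 6 omissions. The cause was not tested. Over all genes, leaving out 1 library gave 59 to 459 upregulated and 345 to 2725 downregulated, against 321 and 1954, with the highest counts without cold-acclimated replicate 3. No gene of the 10 was called downregulated under any setting.

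The median log2 fold change of the 10 genes was 0.10, and it was 0.46 with median of ratios scaling, 0.46 with that scaling and the replicate block together, 0.26 with voom on the recovered reads, and between 0.01 and 0.16 with 1 library left out. The log2 fold change of Gpx4 reversed to 0.07 with median of ratios scaling, alone or with the replicate block, a shift that moves all genes together. That of Ftl1 ranged from -0.10 to 0.18 and that of Tfrc from -1.36 to 0.13 as single libraries were left out. The log2 difference of the Fth1 to Ftl1 ratio was 0.06 without cold-acclimated replicate 3, against 0.33. In the replicate block, which pairs libraries by number, the Gclc log2 fold change was 1.03 ± 0.27 (SE, adjusted p = 0.027 in limma), and no call among the 10 genes changed. Over all genes the block gave 458 upregulated and 2679 downregulated. Slc7a11 and Aifm2 are limited most by depth.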
